A study of Mus musculus with 6 samples.

Results

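The 10 genes described here encode the core of the TSC and mTOR machinery: *Tsc1*, *Tsc2*, *Rheb*, *Mtor*, *Rptor*, *Rictor*, *Mlst8*, *Akt1s1*, *Deptor* and *Rps6kb1*. They were taken by symbol from the 23462 genes that the array probes matched through their RefSeq accession, and every probe matched to them was used, 17 in all. The tissue was BAT (brown adipose tissue) of male mice, 8 weeks old per the methods of the study. The WT group held 3 wildtype mice and the KO group held 3 mice with a global knockout of miR-22, so the microRNA was lost in every cell type of the tissue and not in brown adipocytes alone. RNA of each mouse was labelled with Cy3 and hybridized to an Agilent mouse gene expression array of its own, and mice are named below by group and by the order of the deposited samples.

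mTOR is a kinase that works in a pair of complexes. mTORC1 contains mTOR with Raptor (*Rptor*), mLST8 (*Mlst8*), PRAS40 (*Akt1s1*) and DEPTOR (*Deptor*), and promotes protein and lipid synthesis when nutrients and insulin are present. mTORC2 contains mTOR and mLST8 with Rictor (*Rictor*) and phosphorylates AKT. The TSC complex of hamartin (*Tsc1*) and tuberin (*Tsc2*) is a GTPase-activating complex that switches off the small GTPase RHEB (*Rheb*), the direct activator of mTORC1, and S6K1 (*Rps6kb1*) is a main kinase substrate of mTORC1. In BAT, mTORC1 is known to take part in the growth and recruitment of the tissue in the cold.

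The study placed *Tsc1* among the direct targets of miR-22, a model in which the transcript would be released when the microRNA is lost. It reported higher *Tsc1* RNA, by qRT-PCR, and higher TSC1 protein in KO than in WT BAT. Its other evidence included a miR-22 inhibitor, miR-22 mimics and a luciferase reporter assay. The study also reported more TSC1 protein in BAT of adipocyte-specific knockout mice and in differentiated brown adipocytes of KO mice. TSC1 fell as brown adipocytes differentiated. Knockdown of *Tsc1* in KO brown adipocytes was reported to rescue thermogenic and glycolytic genes, oxygen consumption and extracellular acidification. A microRNA pairs with target transcripts mainly through its seed, bases 2 to 8, shown in capitals in both mature strands of mouse miR-22. These are the molecules removed in the KO mice, and a target transcript would carry the complement of the seed.
mmu-miR-22-3p: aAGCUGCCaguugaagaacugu
mmu-miR-22-5p: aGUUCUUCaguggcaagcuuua
Both are RefSeq sequences on the plus strand of GRCm38.p6, at chr11:75463772-75463793 for miR-22-3p and chr11:75463734-75463755 for miR-22-5p. A full match of the seed reads GGCAGCU for miR-22-3p and GAAGAAC for miR-22-5p. The site in *Tsc1* was not analysed here. The array had 0 probes matched to the miR-22 hairpin. Its host gene *Mir22hg* read 1.20, 1.69 and 1.22 in WT and 2.02, 2.11 and 2.23 in KO (log2 difference 0.75, standard error 0.19, adjusted p = 0.136 from limma). The position of that probe relative to the deleted segment was not analysed here, so it is no check of the knockout.

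Values are scaled signals: the background-subtracted signal of a spot relative to the 75th percentile of all spots on the same array, on the log2 scale, so that 0 equals that percentile. They compare mice for 1 probe and do not rank genes against each other, because probes differ in how well they bind. In BAT as a whole, fewer cells of a type and less RNA per cell cannot be told apart. All 12 brown adipocyte markers were measured well above background. The 20 skeletal muscle markers had a mean scaled signal of 2.45, 1.65 and -4.12 in WT and 0.12, 3.42 and 1.57 in KO. WT3 had by far the lowest value. The difference between the groups had p = 0.7 in a two-sided exact permutation test, where 3 against 3 cannot go below 0.1. The other 8 marker lists varied by 0.25 to 0.98 between arrays. Their two-sided exact permutation tests gave p = 0.2 at the lowest, where 0.1 is the smallest that 3 against 3 allows. The scanner software marked between 4.87% and 6.12% of spots as outliers on 4 of the arrays, and 17.1% on WT3 and 15.1% on KO1. All 6 arrays lay on 1 slide, with WT1 and WT2 in the first row and WT3 and the KO mice in the second row, so that a comparison within a row rests on WT3 alone. Differences are KO minus WT, tested with limma across all 31238 testable probes with marked spots left out, and a second fit kept the marked spots.

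Of the 17 probes, 15 were well above background on all 6 arrays and represented all 10 genes. The remaining probes, A_55_P2592305 of *Tsc1* and A_51_P218948 of *Rictor*, were not well above background on any array. Marked spots left 4 of the 15 with too few values, among them the only probes of *Rheb* and *Rptor*, so 11 probes of 8 genes were tested with marked spots left out and 15 probes of 10 genes with them kept.

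**Figure D1:**
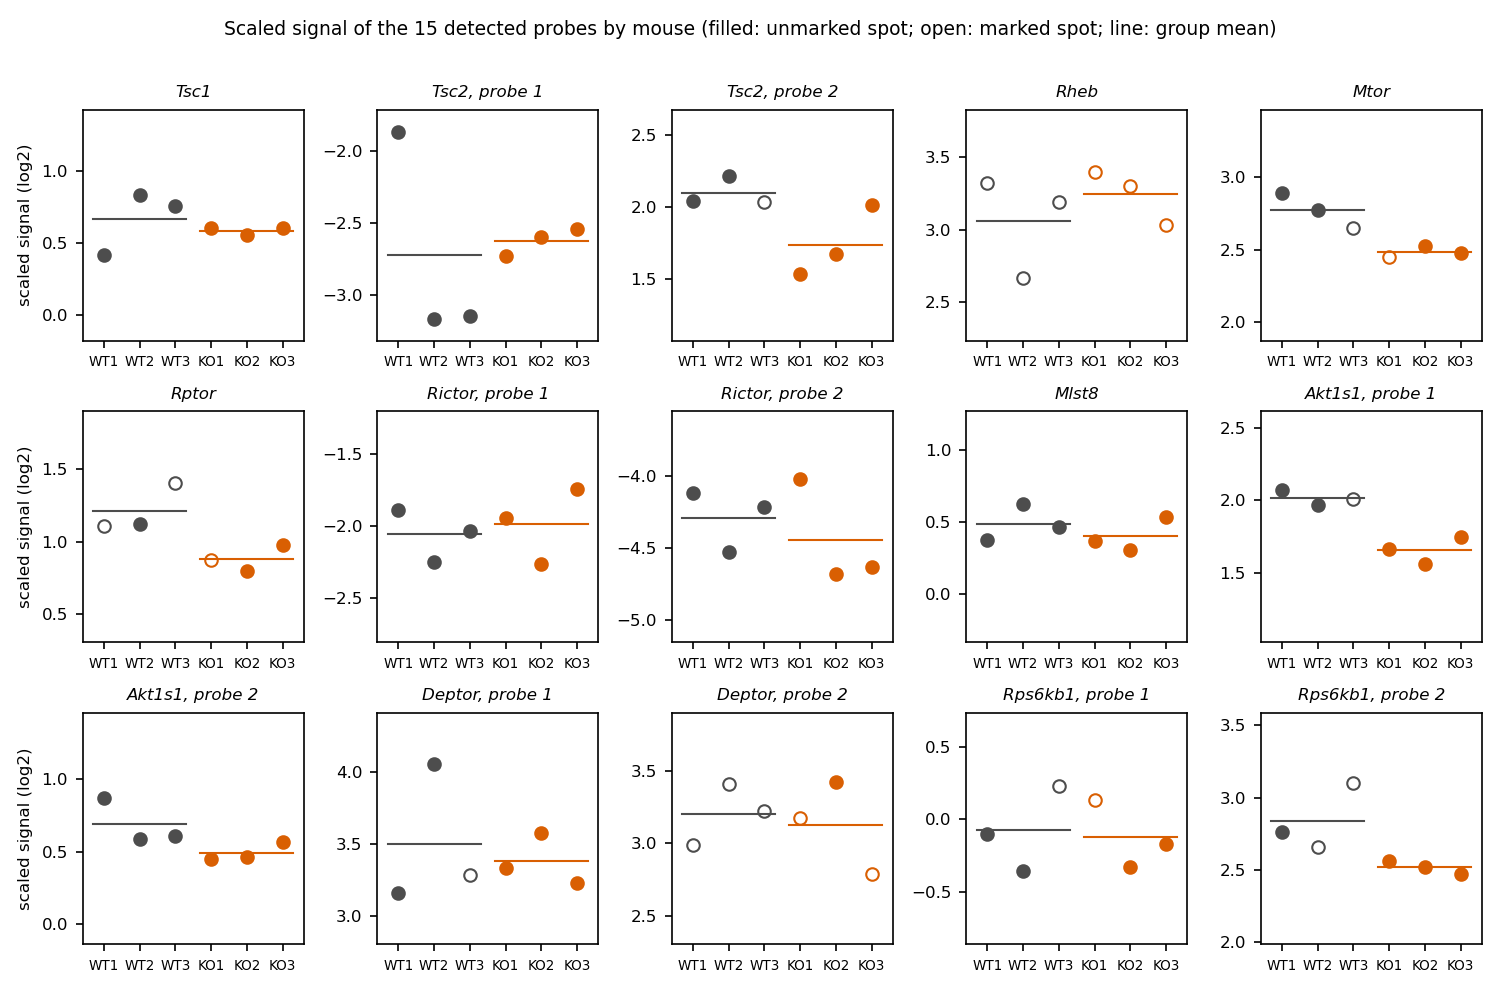
Scaled signal (log2) of the 15 detected probes in each mouse, with WT in grey and KO in orange, open circles for marked spots and a line for the group mean, over all spots. All panels have the same vertical span. The *Tsc1* values of the KO mice lie inside the WT range, and both *Akt1s1* panels and those of *Mtor*, *Rptor*, *Tsc2* probe 2 and *Rps6kb1* probe 2 show the KO mice below the WT mice. For genes with more than 1 probe, the numbers follow the order in which the text describes them.

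*Tsc1*, the scaffold subunit of the TSC complex, did not differ detectably between the groups. Its probe A_55_P2157695 had scaled signals of 0.42, 0.83 and 0.76 in WT and 0.60, 0.55 and 0.60 in KO, none of them from a marked spot. All 3 KO values fell between the lowest and the highest WT value, and the WT mice were the more variable group. The mean was 0.67 ± 0.22 (SD, n = 3) in WT and 0.59 ± 0.028 (SD, n = 3) in KO, a difference of -0.08 on the log2 scale with a standard error of 0.17 (adjusted p = 0.826, limma). As a ratio of KO to WT this was 0.944-fold, with a 95% interval from 0.719 to 1.24. In this setting the interval does not reach a rise in KO mice beyond 1.24-fold, an upper limit of 0.31 on the log2 scale. With marked spots kept, that limit was 0.45 without WT3 and 0.19 without WT1. It was 0.41 with the skeletal muscle signal as a covariate. Across the 29 alternative settings the difference ran from -0.21 to -0.0010, and the adjusted p from 0.57 to 0.998. WT1 and WT2 set that range: without WT1 the difference was -0.21 and without WT2 it was -0.0010. The study's qRT-PCR found the *Tsc1* transcript significantly higher in KO BAT, a rise that this array probe did not show. The reason for that difference was not tested. The arrays measured RNA only, and the TSC1 protein was not part of these data.

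**Figure D2:**
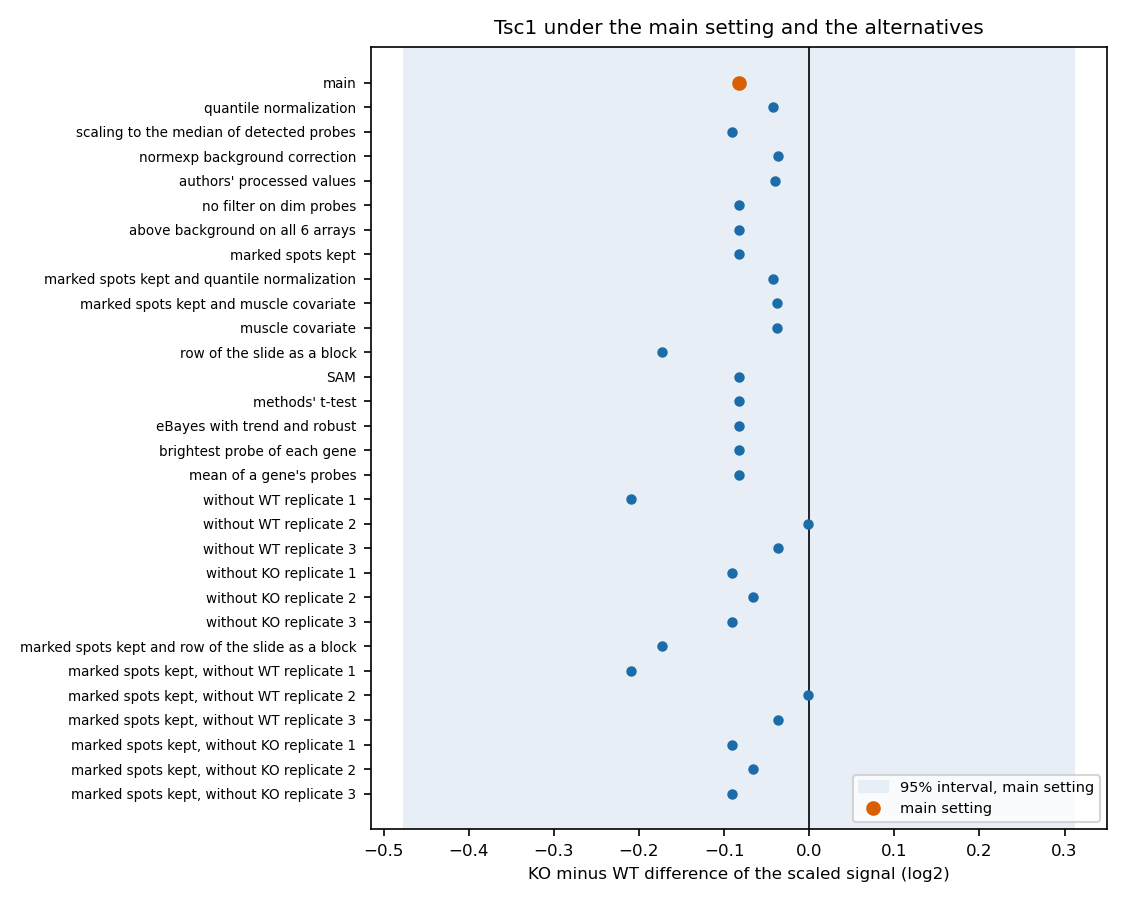
Log2 difference of *Tsc1* (KO minus WT) in the main setting, in orange, and under each of the 29 alternatives, in blue, with the shaded band marking the 95% interval of the main setting, -0.48 to 0.31. All points lie below 0 and inside the band.

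*Tsc2*, which encodes the GTPase-activating subunit of the same complex, was read by a pair of probes that gave different pictures. Probe A_55_P2738972 (probe 1) had values of -1.87, -3.17 and -3.14 in WT and -2.73, -2.60 and -2.54 in KO. WT1 stood far above the other WT mice, and the KO mice lay between them. The log2 difference was 0.10 (standard error 0.35, adjusted p = 0.901, limma), and without WT1 it was 0.53 at an unadjusted p of 0.0244. Under quantile normalization the sign turned, at -0.035. Probe A_51_P345714 (probe 2) had values of 2.04, 2.21 and 2.03 in WT and 1.53, 1.67 and 2.01 in KO, the WT3 spot being marked. The groups did not overlap, but KO3 came close to the lowest WT mouse. With the marked spot left out the difference was -0.39 (95% interval -0.90 to 0.13, adjusted p = 0.413, limma). Without KO3 it was -0.52 at an unadjusted p of 0.0494, and with normexp background correction -0.53 at 0.0407.

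*Rheb*, the GTPase on which the TSC complex acts, could be read only from spots that the scanner marked on every array. The probe A_66_P123117 had values of 3.32, 2.66 and 3.19 in WT and 3.40, 3.30 and 3.03 in KO. Only WT2 stood apart, and the groups overlapped. With the marked spots kept, the log2 difference was 0.19 (standard error 0.22, adjusted p = 0.675, limma), and after quantile normalization 0.39 (adjusted p = 0.535).

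*Mtor*, the kinase shared by both complexes, had lower values in the KO mice without passing the test. Its single probe A_51_P282179 read 2.89, 2.78 and 2.65 in WT and 2.45, 2.53 and 2.47 in KO, with marked spots on WT3 and KO1. Every KO value lay below every WT value. The log2 difference was -0.33 with those spots left out (95% interval -0.84 to 0.18, adjusted p = 0.462, limma) and -0.29 with them kept (95% interval -0.62 to 0.05, adjusted p = 0.34). The methods' t-test gave an unadjusted p of 0.0336 for the values without marked spots, of which 2 mice per group remained, and an adjusted p of 0.292. After quantile normalization with all spots the difference was -0.12 and the values overlapped.

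*Mlst8* encodes the subunit that binds the kinase domain of mTOR in both complexes. Probe A_52_P357402 read 0.38, 0.63 and 0.46 in WT and 0.37, 0.31 and 0.53 in KO, with no marked spot. The groups overlapped through most of their range, and the log2 difference was -0.085 (standard error 0.15, adjusted p = 0.806, limma).

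*Deptor*, an inhibitory subunit that binds mTOR, had a pair of probes, neither of which passed the test. Probe A_51_P445841 (probe 1) read 3.16, 4.05 and 3.28 in WT and 3.33, 3.58 and 3.23 in KO, with a marked spot on WT3. Only WT2 stood out, above all others. The log2 difference of -0.23 (standard error 0.30, adjusted p = 0.729, limma) became 0.05 after quantile normalization and 0.13 in the processed values of the authors, so its direction was not settled. Probe A_65_P14821 (probe 2) was marked on all arrays but KO2 and read 2.99, 3.41 and 3.22 in WT and 3.18, 3.42 and 2.78 in KO. Its groups overlapped as well, at a difference of -0.08 with the marked spots kept (adjusted p = 0.869, limma) and 0.15 after quantile normalization.

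*Akt1s1* encodes PRAS40, a subunit of mTORC1 that restrains the kinase until AKT phosphorylates it, and it was the member with the smallest p-values. Probe A_55_P2848456 (probe 1) read 2.07, 1.97 and 2.01 in WT and 1.67, 1.56 and 1.74 in KO, with a marked spot on WT3. The WT mice lay close together, and all 3 KO mice lay below them. The log2 difference was -0.37 with that spot left out (95% interval -0.79 to 0.05, unadjusted p = 0.0779, adjusted p = 0.355, limma). With the spot kept it was -0.36 (95% interval -0.69 to -0.03, unadjusted p = 0.0349, adjusted p = 0.252), a KO level 0.779-fold that of WT. Of all probes, 8.07% were lower at that unadjusted threshold with marked spots kept, against 1 of the 15 member probes. The difference was smaller after quantile normalization, at -0.25 (adjusted p = 0.361 with all spots), where the groups still did not overlap. The call with marked spots kept held without WT2 or without KO3, and was lost without any other array and with slide row as a block (-0.35, adjusted p = 0.712). Probe A_51_P478326 (probe 2) read 0.87, 0.59 and 0.61 in WT and 0.45, 0.46 and 0.57 in KO, with no marked spot. It had the same direction and a smaller difference of -0.20 (standard error 0.15, adjusted p = 0.552, limma), and KO3 lay just below the lower WT mice.

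*Rptor* encodes Raptor, which defines mTORC1 and recruits its substrates. Its single probe A_52_P229320 read 1.11, 1.12 and 1.41 in WT and 0.87, 0.80 and 0.98 in KO, with marked spots on WT1, WT3 and KO1. Every KO mouse lay below every WT mouse, and WT3 was the highest. Only the fit with marked spots could be made, at a log2 difference of -0.33 (95% interval -0.69 to 0.03, adjusted p = 0.321, limma). It was -0.27 after quantile normalization (adjusted p = 0.374), again without overlap, and -0.52 with slide row as a block (adjusted p = 0.637).

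*Rictor*, the defining subunit of mTORC2, was read by a pair of dim probes. Probe A_52_P145412 (probe 1) read -1.89, -2.25 and -2.04 in WT and -1.95, -2.27 and -1.75 in KO, and probe A_52_P550602 (probe 2) read -4.12, -4.53 and -4.22 in WT and -4.02, -4.68 and -4.63 in KO. The groups overlapped on both probes. The log2 differences were 0.07 (standard error 0.19, adjusted p = 0.872, limma) and -0.16 (standard error 0.23, adjusted p = 0.757), and the first turned to -0.04 after quantile normalization.

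*Rps6kb1*, the gene of S6K1, was split between its probes. Probe A_52_P170486 (probe 1) read -0.10, -0.36 and 0.23 in WT and 0.13, -0.33 and -0.17 in KO, with marked spots on WT3 and KO1. Its groups overlapped, and the log2 difference was -0.018 (standard error 0.22, adjusted p = 0.974, limma). Probe A_55_P2019083 (probe 2) read 2.76, 2.66 and 3.10 in WT and 2.56, 2.52 and 2.47 in KO, with marked spots on WT2 and WT3. Its KO mice lay below the WT mice, of which WT3 was the highest. With all spots the difference was -0.32 (95% interval -0.71 to 0.07, adjusted p = 0.357, limma). It was -0.15 after quantile normalization, and -0.58 with slide row as a block (unadjusted p = 0.0352, adjusted p = 0.6), a value that compares the KO mice with WT3 alone.

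With marked spots left out, 0 of the 11 testable member probes passed an unadjusted p of 0.05 with limma in either direction, where 6.74% of all tested probes were lower and 9.7% were higher. None passed after adjustment over all probes, where 0.109% of probes did, and the smallest adjusted p among the members was 0.355. SAM, the test named in the methods, called 0 of them at the same unadjusted threshold, and the methods' t-test called 2, the *Mtor* probe and probe 1 of *Akt1s1*, both lower. Over all 31238 probes at that threshold, the latter test called 2371 lower and 2392 higher, and SAM called 1622 lower and 2629 higher. With marked spots kept, 1 of 15 was lower and 0 were higher with limma, against 8.07% lower and 9.3% higher among all probes. With marked spots left out, the 95% intervals of the member probes reached between 0.36 and 0.83 log2 units to either side of the difference. That precision came from 3 mice per group for 6 of the 11 probes, and from 2 mice in at least 1 group for the others.

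**Figure D3:**
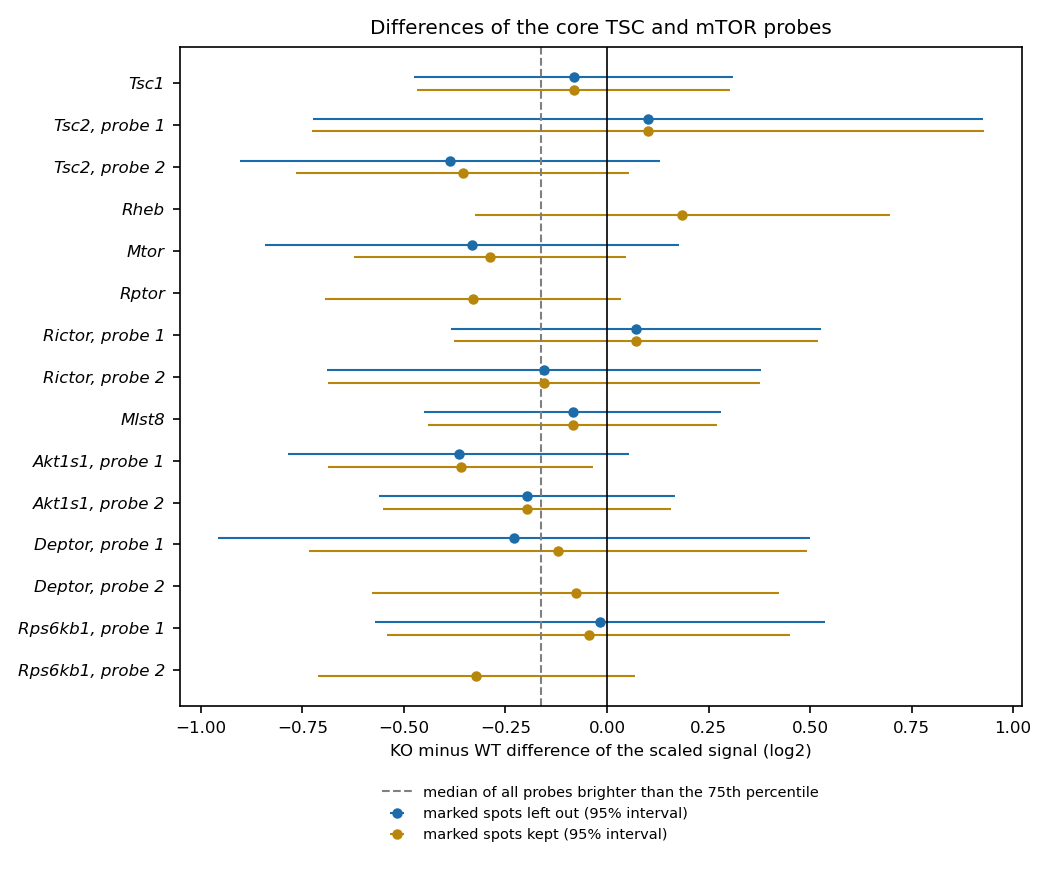
Log2 difference (KO minus WT) of each detected member probe with its 95% interval from limma, in blue with marked spots left out and in gold with marked spots kept. The dashed line is the median of all probes brighter than the 75th percentile, -0.16. The interval of *Akt1s1* probe 1 with marked spots kept, -0.69 to -0.03, is the only one that does not include 0.

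Most member probes had lower values in the KO mice, 12 of 15 with marked spots kept, and on 6 of the 15 every KO mouse lay below every WT mouse. These were probe 2 of *Tsc2*, the *Mtor* and *Rptor* probes, both *Akt1s1* probes and probe 2 of *Rps6kb1*. On 0 of the 15 did every KO mouse lie above every WT mouse. Over all 35651 probes those shares were 13.6% below and 11.9% above. Of the 15 member probes, 11 were brighter than the 75th percentile, and the direction of all probes moved with brightness in this scaling. Among the 12240 probes brighter than the 75th percentile, 72.7% had lower values in the KO mice, with a median difference of -0.16, and on 23% every KO mouse lay below every WT mouse. All 6 member probes without overlap were among the 11 members in that bright class, a share of 54.5%. How far the member differences followed brightness was not tested. The median difference over 10 equal bins of brightness ran from 0.13 in the dimmest to -0.26 in the brightest bin. Quantile normalization brought the brightest bin to -0.02, and there 2 member probes kept every KO mouse below every WT mouse, the *Rptor* probe and probe 1 of *Akt1s1*, against 14.6% of all probes. The median over the member probes was -0.12 with marked spots kept, and quantile normalization took it to -0.05, against -0.0084 and -0.03 over all probes.

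**Figure D4:**
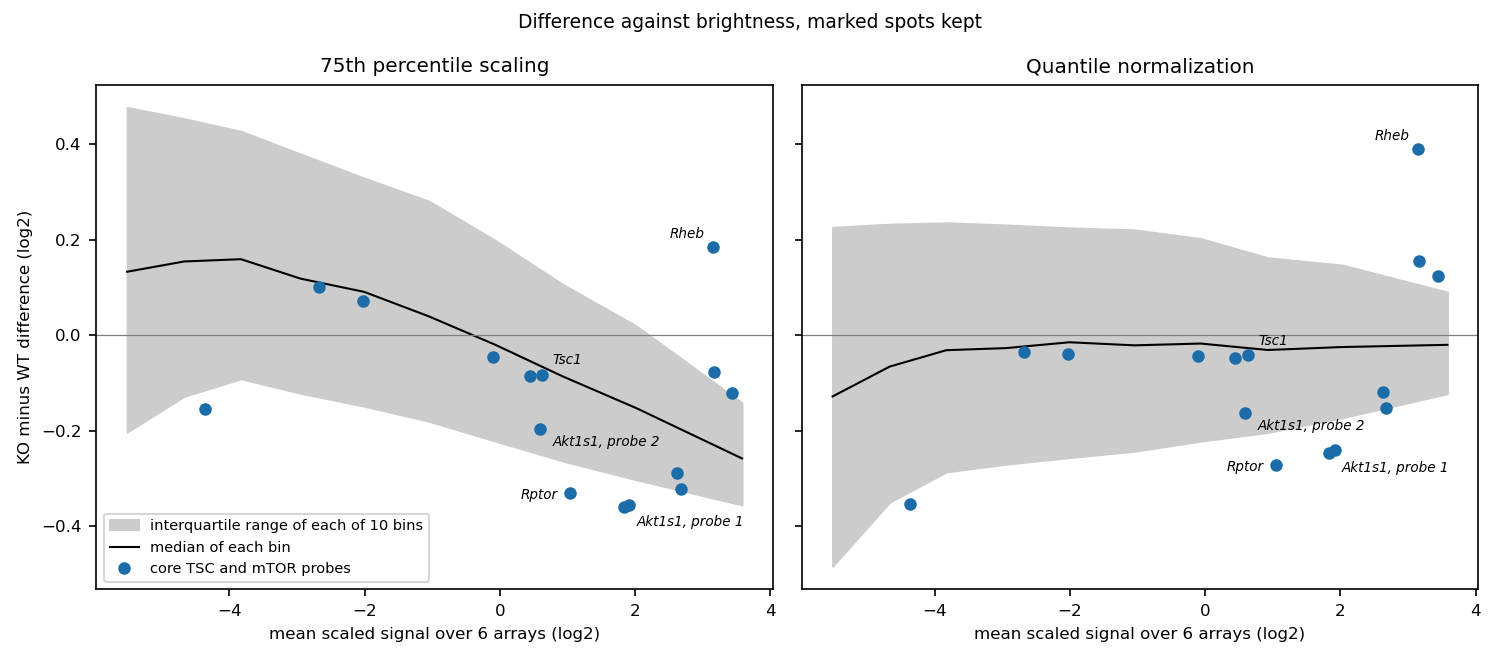
Log2 difference (KO minus WT) against mean scaled signal (log2) with marked spots kept, under 75th percentile scaling on the left and quantile normalization on the right. The line is the median and the band the interquartile range of all probes in each of 10 bins of brightness, and blue points are the 15 member probes. In the left panel the line falls from 0.13 to -0.26. In both panels *Rptor*, *Akt1s1* probe 1, *Tsc2* probe 2 and *Rictor* probe 2 lie below the band, and *Rheb* and both *Deptor* probes lie above it.

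The skeletal muscle signal was lowest in WT3 and KO1. With its mean as a covariate and marked spots kept, the difference of *Tsc1* was -0.04, that of *Mtor* -0.34 and that of *Rptor* -0.26. Probe 1 of *Akt1s1* stayed at -0.36, at an unadjusted p of 0.0752 (adjusted p = 0.38, limma). The small differences of probe 1 of *Tsc2* and probe 1 of *Rps6kb1* turned sign, to -0.08 and 0.10. None of the 15 member probes passed the unadjusted threshold in that fit. The following marker list differences are given without a verdict, because the exact permutation test with 3 against 3 cannot go below 0.1. The mean of the brown adipocyte markers differed by -0.29 on the log2 scale, that of the markers of all adipocytes by -0.23, and that of the nerve and Schwann markers by -0.45. The lists of white adipocytes (0.32), lymphocytes (0.34) and macrophages (0.23) lay on the other side of 0, and those of erythroid cells and endothelium were at 0.10 and -0.0019. In the same scaling, the median difference of all probes was -0.26 in the brightest of 10 bins and 0.13 in the dimmest. Over its 8 alternatives the brown adipocyte difference ran from -0.41 to -0.099, and the white adipocyte difference from 0.16 to 0.48. How far the list differences followed brightness was not tested, nor was their part in the member differences.

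Around the core genes, 111 other genes of mTOR signalling were followed through their brightest testable probe, and 94 of them could be tested. In the KO mice 10 were lower and 5 were higher at an unadjusted p under 0.05 with limma, where 7.39% of all 14711 genes were lower and 9.23% higher, and 0 passed after adjustment. The median difference of the list was -0.14, against -0.03 over all genes, and it was -0.09 against -0.03 after quantile normalization. With marked spots kept, 16 of 109 genes of the list were lower and 3 higher at the same threshold with limma. Over all 16110 genes in that fit, 1536 were lower and 1409 higher. *Lamtor1* and *Acaca* had the smallest p-values of the list. With slide row as a block and marked spots left out, their log2 differences were -0.62 and -0.66, values that compare the KO mice with WT3 alone.

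The 9 other subunits and assembly factors of the complexes, such as the third TSC subunit gene *Tbc1d7* and the mTORC2 subunit gene *Mapkap1*, included 0 called genes in either direction (median difference -0.05). Of the genes that act on the TSC complex from insulin, growth factors and energy status, 4 of 26 were lower and 1 higher. *Irs2*, an adaptor of the insulin receptor, read 2.01, 1.98 and 1.93 in WT and 1.62, 1.12 and 1.28 in KO (log2 difference -0.63, adjusted p = 0.158, limma). The KO mice all lay below the WT mice. Both genes on the list that encode RSK kinases, which phosphorylate tuberin, were lower as well. The log2 difference was -0.81 for *Rps6ka3* (adjusted p = 0.158, limma) and -0.58 for *Rps6ka1* (adjusted p = 0.219, limma). The other probe of *Rps6ka1* gave -0.79, and those of *Rps6ka3* gave -0.07 and -0.29, none of the latter past the threshold. The regulatory subunits of PI3K went opposite ways. *Pik3r2* was at -0.42 and *Pik3r1* at 0.79, and the *Pik3r1* groups overlapped, with -0.73, -0.39 and -0.15 in WT and -0.16, 0.88 and 0.38 in KO.

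Among the genes that carry the amino acid signal to mTORC1 on the lysosome, 4 of 24 were lower and 2 higher. *Lamtor1*, which anchors the Ragulator complex in the lysosomal membrane, had the smallest p-value of the whole list, with 3.52, 3.79 and 3.68 in WT and 3.02, 2.95 and 3.20 in KO (log2 difference -0.60, standard error 0.16, adjusted p = 0.146, limma). It kept its direction and an unadjusted p under 0.05 under all 29 alternatives. *Kptn*, a subunit of the KICSTOR complex, had a difference of -0.40, and -0.11 on its other probe. *Fnip1* and *Lamtor4*, which fell outside the rule for named genes and were picked after their values were seen, had differences of -0.49 and -0.55. *Rragd*, one of the Rag GTPases that bring mTORC1 to the lysosome, was higher by 0.81 on the log2 scale and on its other probe by 1.18. Its values were -2.45, -3.36 and -2.98 in WT and -1.95, -1.93 and -2.46 in KO, where KO3 just reached below the highest WT mouse. *Sesn3*, a member of the sestrin family of mTORC1 inhibitors, was higher by 0.49 in values without overlap.

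Of the substrates and effectors of mTORC1, 1 of 19 was lower and 2 were higher. *Eif4ebp1*, the gene of the translation repressor 4E-BP1, read 4.03, 4.42 and 4.11 in WT and 3.59 and 3.52 in KO2 and KO3, the spot of KO1 being marked (log2 difference -0.63, adjusted p = 0.208, limma). *Ulk1*, the kinase that starts autophagy, and *Lpin1*, a phosphatidate phosphatase, were higher by 0.90 and 0.59, but both on dim probes. Their brighter probes, usable only with marked spots kept, gave -0.10 for *Ulk1* and 0.05 for *Lpin1*. Of the transcripts known to rise with mTORC1 activity, such as those of lipid and amino acid synthesis, 1 of 16 was lower and 0 were higher. It was *Acaca*, the gene of acetyl-CoA carboxylase, at 4.39 and 4.36 in WT1 and WT3 and 3.61, 3.78 and 3.71 in KO, the spot of WT2 being marked (log2 difference -0.68, adjusted p = 0.15, limma), and its other probes gave -1.03 and -0.84. The median of that list was -0.19, and 13 of its 16 genes had lower values in the KO mice, where 52.9% of all genes did. After quantile normalization the median was -0.20, and 10 of the 16 had lower values. Over all 14711 genes the median was then -0.03, and 8079 had lower values.

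**Figure D5:**
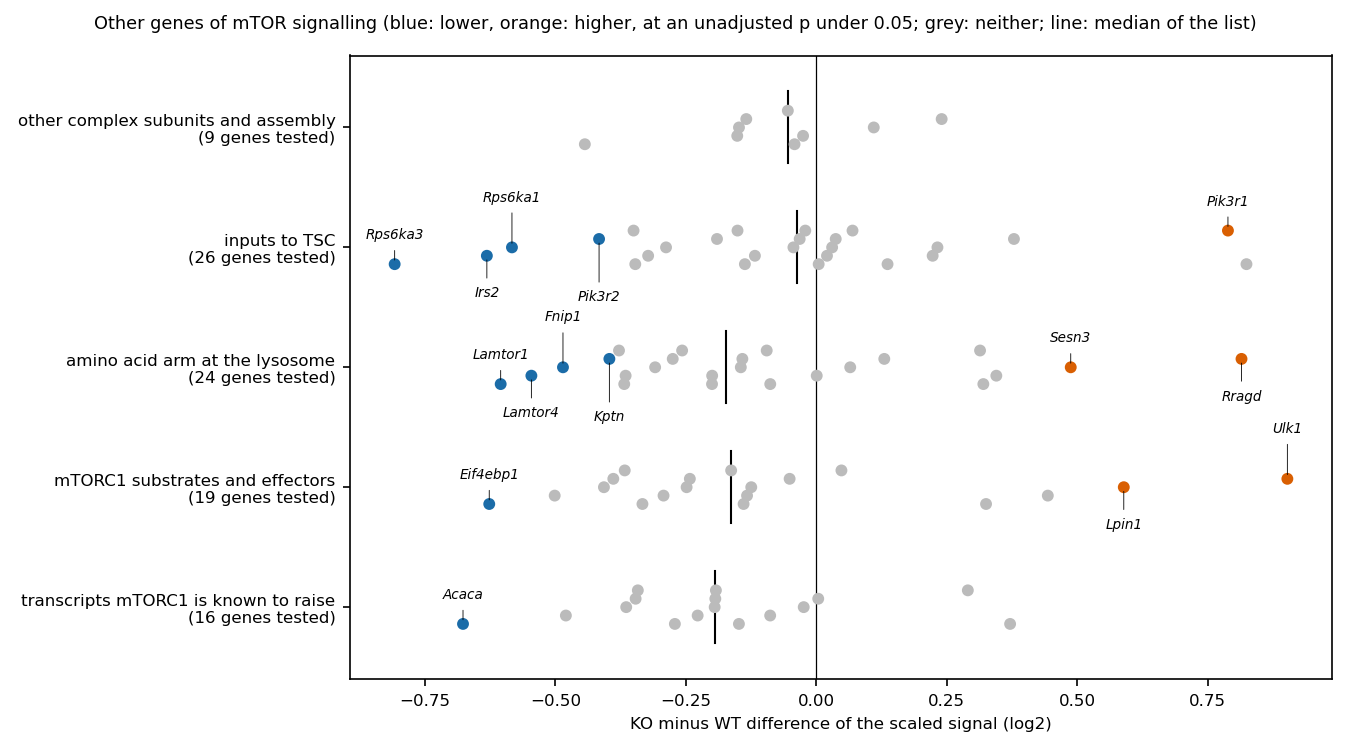
Log2 difference (KO minus WT) of the 94 testable genes of mTOR signalling outside the core, 1 point per gene on its brightest testable probe, in 5 groups by role. Blue points were lower and orange points higher at an unadjusted p under 0.05 from limma, and the black lines are group medians. The called genes number 10 to the left of 0 and 5 to the right, and the medians of the 5 groups lie between -0.19 and -0.04.

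The genes whose values followed *Tsc1* most closely over the 6 arrays were *Fgf14* (Pearson's r = 0.987), *Lmo1* (0.978) and *Zc3h7b* (0.973), among 9520 genes without a marked spot. For *Mtor* they were *Trp53i11* (0.993), *Susd5* (0.990) and *Sinhcaf* (0.987). With 6 arrays, 58 genes exceeded an r of 0.9 with *Tsc1* and 115 with *Mtor*, so these values describe likeness of pattern and are given without a test.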

How the data were processed

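BAT RNA of 6 mice, 3 in each genotype, was measured on 1-colour Agilent arrays. The authors deposited intensity values from Agilent Feature Extraction, background-subtracted by the scanner software, with version 11.5.1.1 in the file headers and 10.7 in the submitters' processing notes. They also deposited processed log2 values for 27497 probes, whose processing is not given in the sources used here, which held 9 of the member probes and served as an alternative. Mice were grouped by the genotype in the labels.

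Each signal was divided by its array's 75th percentile, control spots aside. Spots that the software marked, either for lack of uniformity or as outliers of a population, were left out or, in a second fit, kept. Probes needed a signal well above background on at least 3 arrays and at least 2 values per group. Of 56605 probes, 33767 (59.7%) matched a gene of RefSeq on GRCm38.p6. Groups were tested by limma 3.58.1, through lmFit and eBayes (R 4.3.3, with data.table at version 1.17.8), two-sided, with Benjamini-Hochberg adjustment over all probes tested, and the steps were tested on simulated data. Tables and figures used Python 3.11.15, pandas 2.3.3 and matplotlib 3.10.9. The unadjusted threshold of 0.05 is that of the methods. The 3 arrays per group limit the precision. The p-values set a group difference against the spread between these mice, which limma moderates with the spread over all probes tested.

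The members, the lists of mTOR signalling genes and of 9 marker sets, and the settings were chosen with earlier results of these data known. Named genes were all members, the pathway genes with an unadjusted p under 0.05 (at most 8 per direction, by p), 3 genes each most like *Tsc1* and *Mtor*, and *Mir22hg*. Alternatives changed the scaling (quantile normalization, or the median of detected probes), the background (normexp with an offset of 50 on the median spot signal), the source (the processed values of the authors), the filter (none, or all 6 arrays), the marked spots, the covariates (the muscle list, or slide row as a block), the test (SAM, eBayes with trend and robust, the methods' t-test), the unit (the gene) and the mice (each array left out). The row block and the left-out arrays with marked spots kept were added after seeing the data.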

Additional observations from a re-analysis of the deposited data

How the results depend on the processing

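No paired analysis was possible because the labels give no numbers shared between the groups. The *Tsc1* difference kept its direction and its side of the unadjusted threshold under all 29 alternatives, and ranged from -0.21 to -0.0010 with 1 array left out. The count of called member probes, 0 in the main setting, became 1 with marked spots kept, normexp, eBayes with trend and robust, or marked spots kept with the row block, and 2 with the methods' t-test, and with 1 array left out it ranged from 0 to 2. Without WT1 the call was higher (probe 1 of *Tsc2*), and the others were lower. The count of called pathway genes, 15, fell to 2 with the row block (3 with marked spots kept), rose to 23 with eBayes with trend and robust, and ranged from 9 to 14 with 1 array left out (11 to 20 with marked spots kept), the lowest being without WT1 and without WT2. For the 13 named pathway genes, the probe that named them kept its direction wherever it was measured. Their calls were less stable. The unadjusted threshold was missed in 15 alternatives for *Kptn*, 13 for *Pik3r1*, 12 for *Pik3r2* and 11 for *Rragd*. It was missed in 9 each for *Rps6ka1* and *Ulk1*, and in at most 4 for any other named gene. With marked spots kept, a brighter probe of *Ulk1* lay on the other side of 0, at -0.10.

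Directions turned for 4 of the 11 member probes tested with marked spots left out. Probe 1 of *Tsc2* turned to -0.035 after quantile normalization with or without marked spots, -0.032 in the processed values of the authors and -0.0799 with the muscle covariate with or without marked spots, and to -0.119 without WT2 and -0.108 without WT3, while without WT1 it was 0.53. Probe 1 of *Rictor* turned to -0.0402 after quantile normalization with or without marked spots, -0.038 in the processed values and -0.042 in the mean of the gene's probes, and to -0.0242 without WT2 and -0.0493 without KO3. Probe 1 of *Deptor* turned to 0.0497 after quantile normalization, 0.12 with marked spots kept as well, 0.13 in the processed values and 0.094 with marked spots kept and the row block, and to 0.157 without WT2 with marked spots kept. Probe 1 of *Rps6kb1* turned to 0.043 with normexp and 0.096 with marked spots kept and the muscle covariate, and with marked spots kept to 0.11 without WT3 and 0.0593 without KO2. Of the 4 probes tested only with marked spots kept, probe 2 of *Deptor* turned from -0.08 to 0.15 after quantile normalization, 0.025 without WT2 and 0.095 without KO3, and *Rheb* from 0.19 to -0.013 without WT2. Among marker lists, the muscle difference turned to -0.35 without WT3 (up to 2.94 without another array), the list of all adipocytes to 0.018 and endothelium to 0.084 after quantile normalization, endothelium ran from -0.063 to 0.062 and the erythroid list from -0.019 to 0.201 with 1 array left out. Causes were not tested.

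Over all probes, 2104 were lower and 3031 higher (34 after adjustment). Quantile normalization gave 3020 and 2008, normexp 2323 and 1662, and the processed values 3076 and 1953. Without the filter on dim probes 1560 were lower and 4033 higher, and the median difference moved from 0.016 to 0.21. The row block gave 565 and 1689, and could not be fitted for member probes marked on WT3. After adjustment the count was 349 with eBayes with trend and robust, 234 with the filter on all 6 arrays and 0 with SAM.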
